A study of Mus musculus with 12 samples.

Results

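The genes described here encode the machinery that brings proteins into mitochondria, folds them there and degrades them. They are the subunits of the TOM and TIM translocases, the chaperones of the mitochondrial matrix, and the mitochondrial proteases. The 39 genes were chosen by name, with earlier results of these data known. Rows for 38 of them were found by Ensembl identifier among the 37583 genes of each count file. No row carried the identifier of Tomm20, an import receptor of the outer membrane, and this gene was not analysed here. RNA was sequenced from 12 single-cell clones of mouse myeloid progenitors, 6 Taz knockout (KO: 3G, 3H, 3I, 4J, 4K and 4L) and 6 wildtype (WT: 1A, 1B, 1C, 2D, 2E and 2F). Both genotypes are C57BL/6 and came from fetal liver at embryonic day 15.5. Cells of both genotypes carry a retroviral ER-Hoxb8 fusion, which blocks maturation while estradiol is present, and were grown with 0.5 µM estradiol and stem cell factor at about 50 ng/ml. Taz encodes tafazzin, the acyltransferase that remodels cardiolipin, the characteristic lipid of the inner mitochondrial membrane. Each clone descends from 1 cell. The number in a clone's title (3 or 4 in KO, 1 or 2 in WT) is not explained by the labels. If clones that share it share an embryo or a parent culture, p-values over 12 clones are too small.

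Nearly all mitochondrial proteins are made in the cytosol and enter through the TOM complex of the outer membrane. The TIM23 complex then passes precursors with a cleavable presequence into the matrix, pulled by a motor built around the HSP70 chaperone mortalin (Hspa9), while the TIM22 complex inserts carrier proteins into the inner membrane with the help of small TIM chaperones of the intermembrane space. HSP60 and HSP10 fold proteins in the matrix, and proteases such as LONP1, CLPXP and the AAA proteases of the inner membrane remove damaged ones. Cardiolipin is known to support the TOM and TIM complexes, and accumulation of unfolded protein in the matrix is known to raise chaperone and protease transcripts in a mitochondrial stress response.

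Taz checked the genotype labels. Its level in CPM, the reads of a gene relative to the library's TMM-scaled total, was between 2.21 and 4.08 in KO clones, with a median of 3.39, and between 37.1 and 43.9 in WT clones, with a median of 38.4. The quasi-likelihood test of edgeR with Benjamini-Hochberg adjustment gave Taz a log2 fold change of -3.54 (SE 0.13, adjusted p = 5.68e-08). Reads counted in genes ran from 18970252 to 23658158 in KO and from 21966954 to 27431544 in WT clones, so KO libraries were shallower (exact two-sided permutation p = 0.0152). Of 9 progenitor markers 0 differed between genotypes (edgeR, 0 also at an unadjusted p under 0.05), and their summed level was 12167 to 20128 CPM in KO and 13306 to 22401 CPM in WT. Of the granule protein genes that mark this stage, Mpo was high (9811 CPM ± 3086 in KO and 9998 CPM ± 2518 in WT) and Elane low (56.0 CPM ± 52.6 in KO and 231 CPM ± 321 in WT). Some clones stood apart. The summed level of 8 mature neutrophil genes was 1480 CPM in WT clone 2D, against 15.8 to 143 CPM in KO clones and 22.0 to 113 CPM in the other WT clones, of which edgeR called 1 of 7 tested. Lymphoid genes were lower in KO clones (sum over 5 genes 1.87 to 2.84 CPM, against 5.25 to 62.4 CPM in WT, 2 of 4 tested genes called, Cd3e at 0 counts in every clone), and 2D was the highest. KO clone 3G held fetal hepatocyte RNA (141 CPM over 4 genes), which reached at most 1.95 CPM in any other clone. The 4 mast cell and basophil genes summed to 2137 to 4879 CPM in KO and to 1072 to 3903 CPM in WT, most of it Cpa3 (3111 CPM ± 919 in KO and 1939 CPM ± 845 in WT), while Fcer1a had at most 2 reads in any clone (0 of 3 tested genes called by edgeR, 1 with an unadjusted p under 0.05). The part of these other cell types and of depth in the results was not tested. In these bulk libraries fewer cells of a type and less RNA per cell cannot be told apart.

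Few of the import, chaperone and protease genes differed between the genotypes, and those by small amounts. Hspa9 was 1.27-fold higher in KO clones. Timm17b, a subunit of the TIM23 complex, and Tomm7, a small subunit of the TOM complex, were lower, to 0.828 and 0.884 of the WT mean. Of the 37 members with enough reads to be tested, these 3 passed an adjusted p of 0.05, 1 higher and 2 lower, or 8.11%. Among all 11819 genes tested the share was 7.94% (3.99% higher and 3.94% lower in KO), so the members were called about as often as genes in general. An unadjusted p under 0.05 was reached by 21.6% of the members and by 23.7% of all genes. The genotypes did not overlap in 2 members, Tomm7 and Timm17b, against 5.38% of all genes. Without KO clone 3G, 3 members were called (5.06% of all genes) and 2 did not overlap (5.99%). The median log2 fold change was -0.04 over the members and -0.01 over all genes, and the members lay between -0.27 and 0.35. Of the tested members 24 had a log2 fold change below 0 and 13 above. The share below 0 was 64.9%, against 51.7% of all genes. This count hung partly on WT clone 2D, the highest WT clone in 28 members. Without 2D the sign turned to above 0 for Tomm40, Timm17a, Timm44, Timm9, Grpel1, Hspd1 and Hspe1. No sign turned the other way. With the 3 clones of each title number summed, 2 KO against 2 WT, edgeR called 0 members (8 had an unadjusted p under 0.05) and 1.99% of the 13800 genes then tested. The log2 fold changes there were 0.35 for Hspa9 (adjusted p = 0.0756), -0.27 for Timm17b (0.0840) and -0.17 for Tomm7 (0.125), close to those over 12 clones. The member left untested, Tomm6, had too few reads.

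**Figure D1:**
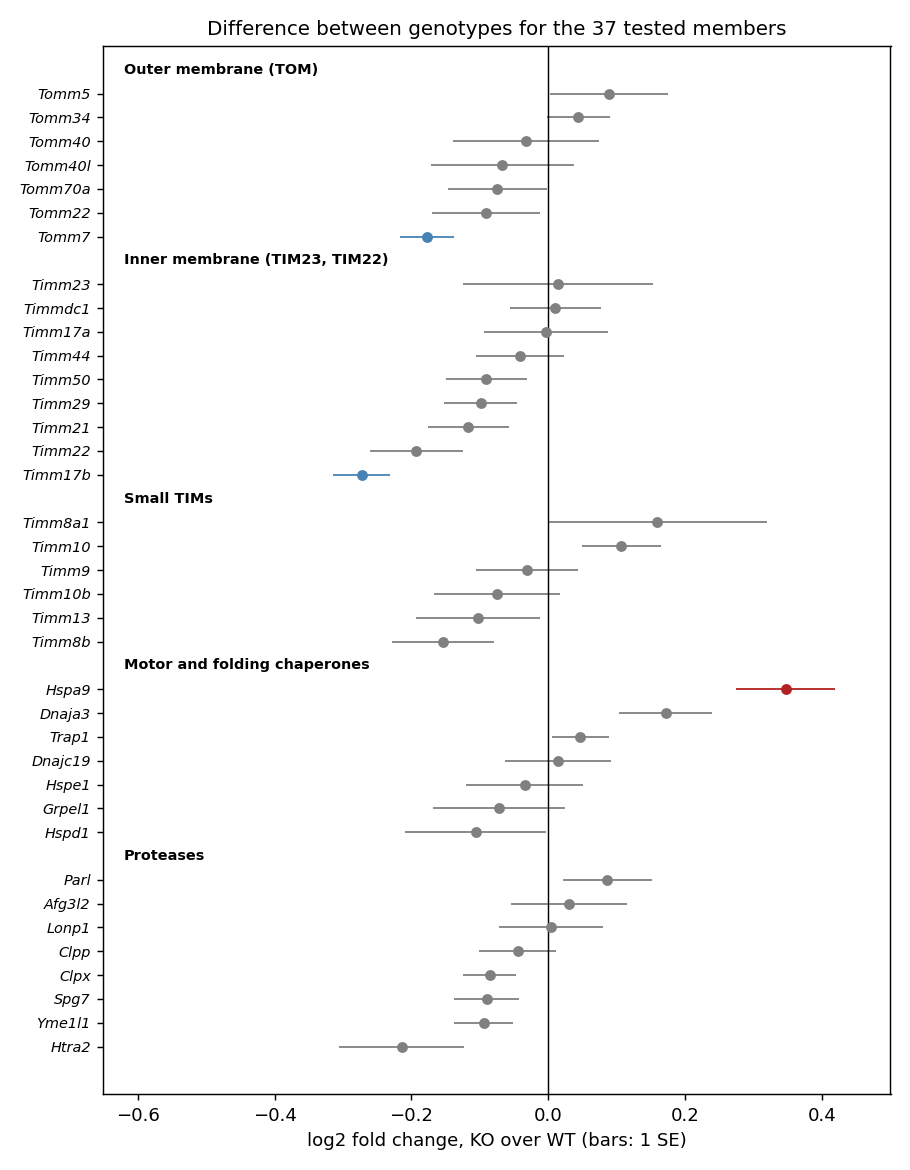
Log2 fold change of each of the 37 tested members, KO over WT, by role, with bars of 1 SE from edgeR's fit. Hspa9 (red, 0.35) is the called rise, Timm17b (-0.27) and Tomm7 (-0.18) are the called falls (blue), and the grey members did not pass the test.

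In the TOM complex, the entry gate, 1 of 7 tested members was called. Tomm7, a small subunit that modulates assembly of the complex, was at 88.3 CPM in the lowest KO clone, 95.01 at the median and 97.7 in the highest. In WT clones its lowest level was 100.3 CPM, its median 104 and its highest 113. Every KO clone lay below every WT clone, but the gap between the nearest clones was small. Its means were 93.8 CPM ± 3.95 in KO and 106 CPM ± 5.23 in WT (SD, n = 6 each), and edgeR's test gave a log2 fold change of -0.18 (SE 0.04, adjusted p = 0.0194). By title number, Tomm7 averaged 92.9 CPM in the clones numbered 3 and 94.7 in those numbered 4, both KO, against 102 in the WT clones numbered 1 and 110 in those numbered 2.

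Tomm40, the beta-barrel pore through which precursors pass, showed no such separation. It was at 130 to 152 CPM in KO clones, with a median of 139, and at 122 to 195 CPM in WT clones, with a median of 130.1. The highest WT value was that of clone 2D, and the log2 fold change of -0.03 (SE 0.11, adjusted p = 0.891 by edgeR) became 0.08 without that clone. Tomm70a, a receptor for carrier precursors that docks cytosolic chaperones, averaged 402 CPM ± 24.1 in KO and 423 CPM ± 48.3 in WT (n = 6 each). Tomm22, the central receptor, averaged 110.2 CPM ± 6.90 in KO and 117 CPM ± 15.5 in WT. The small subunit gene Tomm5 (36.7 CPM ± 2.73 in KO, 34.6 CPM ± 4.68 in WT) had a log2 fold change of 0.09, and Tomm34, which encodes a cytosolic co-chaperone of precursors, one of 0.04. None of these 4 genes passed the test, nor did Tomm40l, a paralog of Tomm40.

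In the inner membrane translocases, 1 of 9 members was called. Timm17b, 1 of the paralogs of the TIM23 core subunit TIM17 and a gene of the X chromosome like Taz, was at 48.2 CPM in the lowest KO clone, 52.4 at the median and 54.1 in the highest. In WT clones its lowest level was 58.4 CPM, its median 62.3 and its highest 66.3. The genotypes were clearly apart, and the spread within each was small (51.6 CPM ± 2.32 in KO, 62.4 CPM ± 2.79 in WT). Timm17b had the smallest p of the members (log2 fold change -0.27, SE 0.04, adjusted p = 0.00296 by edgeR). Its title-number means were 52.6 and 50.6 CPM in KO and 64.2 and 60.5 CPM in WT.

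The autosomal paralog Timm17a averaged 49.8 CPM ± 2.77 in KO and 49.96 CPM ± 7.93 in WT (log2 fold change -0.003, SE 0.09, adjusted p = 0.988 by edgeR). Timm17b reads therefore numbered 1.04 ± 0.0612 per Timm17a read in KO clones and 1.27 ± 0.198 in WT clones. The ratio ran from 0.952 to 1.13 in KO and from 0.9503 to 1.46 in WT, and the lowest WT value was again that of clone 2D, where Timm17a was at 63.6 CPM. Whether the change differed between the paralogs was not tested.

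Timm22, the channel of the carrier translocase, was at 34.4 to 39.99 CPM in KO clones (median 37.7) and at 39.1 to 51.4 CPM in WT clones (median 41.8). Of the KO clones 4 lay below every WT clone. Its log2 fold change of -0.19 (SE 0.07) did not pass edgeR's test (adjusted p = 0.106), and it was -0.13 without clone 2D. Timm29, which encodes another TIM22 subunit, averaged 106 CPM ± 4.25 in KO and 113 CPM ± 9.63 in WT. Timm50, the receptor of TIM23, averaged 110.4 CPM ± 6.22 in KO and 118 CPM ± 10.3 in WT. Timm44, which tethers the motor to the channel, averaged 91.9 CPM ± 6.18 in KO and 94.6 CPM ± 8.84 in WT. Timm21, which links TIM23 with the TOM complex, averaged 38.2 CPM ± 3.14 in KO and 41.4 CPM ± 1.93 in WT, and Timmdc1, a member of the same protein family that serves complex I assembly, 29.8 CPM ± 1.21 in KO and 29.6 CPM ± 3.13 in WT.

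Of the 6 small TIM genes edgeR called 0, with 0 also at an unadjusted p under 0.05 and 0 called by DESeq2. Over all genes edgeR called 7.94%, and 23.7% had an unadjusted p under 0.05, so 0 of 6 says little. Their proteins chaperone hydrophobic precursors across the intermembrane space as TIM9-TIM10 and TIM8-TIM13 assemblies. Timm10 was at 22.4 to 24.7 CPM in KO clones (median 23.5) and at 19.9 to 23.9 CPM in WT clones (median 21.8), and its log2 fold change was 0.11 (SE 0.06, adjusted p = 0.290 by edgeR). Its partner Timm9 averaged 39.2 CPM ± 2.99 in KO and 40.04 CPM ± 4.15 in WT. Timm8a1, whose human counterpart is mutated in deafness-dystonia syndrome, lies on the X chromosome. It was at 6.28 to 7.64 CPM in KO clones (median 7.29) and at 4.79 to 9.14 CPM in WT clones (median 5.79). The WT range enclosed the KO range, and the value of 0.16 (SE 0.16) did not pass edgeR's test (adjusted p = 0.594). Timm8b averaged 35.8 CPM ± 2.70 in KO and 39.8 CPM ± 4.17 in WT, and Timm13 67.6 CPM ± 4.65 in KO and 72.6 CPM ± 11.3 in WT.

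Among the motor and folding chaperones, 1 of 7 members was called. Hspa9 encodes mortalin, the HSP70 of the matrix that both pulls precursors in and helps to fold them. Its level was 1105 CPM in the lowest KO clone, 1269 at the median and 1366 in the highest. In WT clones the lowest was 890.2 CPM, the median 973 and the highest 1198. In 5 of 6 KO clones Hspa9 lay above every WT clone, and the overlap came from WT clone 2D (1198 CPM) and KO clone 4K (1105 CPM). The means were 1267 CPM ± 90.4 in KO and 996 CPM ± 109 in WT (n = 6 each), with a log2 fold change of 0.35 (SE 0.07, adjusted p = 0.0147 by edgeR). Without clone 2D the genotypes did not overlap and the log2 fold change was 0.41 (SE 0.06, adjusted p = 0.00166). Since 2D held the highest WT value, leaving it out had to widen the difference, and this fit is no separate support. By title number Hspa9 averaged 1319 and 1215 CPM in KO and 950.0 and 1042 CPM in WT.

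Dnaja3 encodes TID1, a J-protein that stimulates mortalin in the matrix. It was at 117 to 130.5 CPM in KO clones (median 121) and at 96.96 to 131 CPM in WT clones (median 104.5). With all clones it did not pass edgeR's test (log2 fold change 0.17, SE 0.07, adjusted p = 0.152). The highest WT value was that of clone 2D, and the next was 115 CPM, so that without this clone the genotypes did not overlap and Dnaja3 passed the test (0.23, SE 0.05, adjusted p = 0.0138). It was called in 1 of the 12 edgeR fits without 1 clone, with adjusted p up to 0.267. Leaving out the highest WT value of a gene that is higher in KO widens the difference. This pass, and the counts without 2D that follow, are therefore no separate support. Without clone 2D, 4 of 37 members were called and 4 did not overlap (Tomm7, Timm17b, Hspa9 and Dnaja3), against 8.56% and 7.53% of 11927 genes. Without 2D and 3G together, 3 were called (6.29% of all genes), namely Timm17b, Hspa9 and Dnaja3, and the same 4 did not overlap (8.56%), while Tomm7 just missed the threshold (adjusted p = 0.0550 by edgeR).

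The other chaperones of the motor and matrix did not pass the test. Grpel1, its nucleotide exchange factor, averaged 94.2 CPM ± 7.34 in KO and 99.01 CPM ± 15.8 in WT (adjusted p = 0.705 by edgeR). Dnajc19, the J-protein of the import motor, averaged 11.2 CPM ± 0.710 in KO and 11.1 CPM ± 0.996 in WT (adjusted p = 0.935). Trap1, the HSP90 of the matrix, averaged 314 CPM ± 13.5 in KO and 304 CPM ± 16.7 in WT (adjusted p = 0.542).

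Hspd1 and Hspe1 encode HSP60 and HSP10, which form the folding chamber of the matrix and its lid. Hspd1 was at 438 to 518 CPM in KO clones (median 476) and at 448 to 698 CPM in WT clones (median 476). Its log2 fold change of -0.11 (SE 0.10, adjusted p = 0.582 by edgeR) was 0.0015 without clone 2D, which held the highest WT value. Hspe1 was at 62.9 to 74.4 CPM in KO clones (median 66.9) and at 61.8 to 87.7 CPM in WT clones (median 63.4), with a log2 fold change of -0.03 (SE 0.09, adjusted p = 0.849). The genotypes overlapped for both genes. The approximate 95% interval of the Hspd1 difference (normal, from the SE) ran from -0.31 to 0.10 on the log2 scale.

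**Figure D2:**
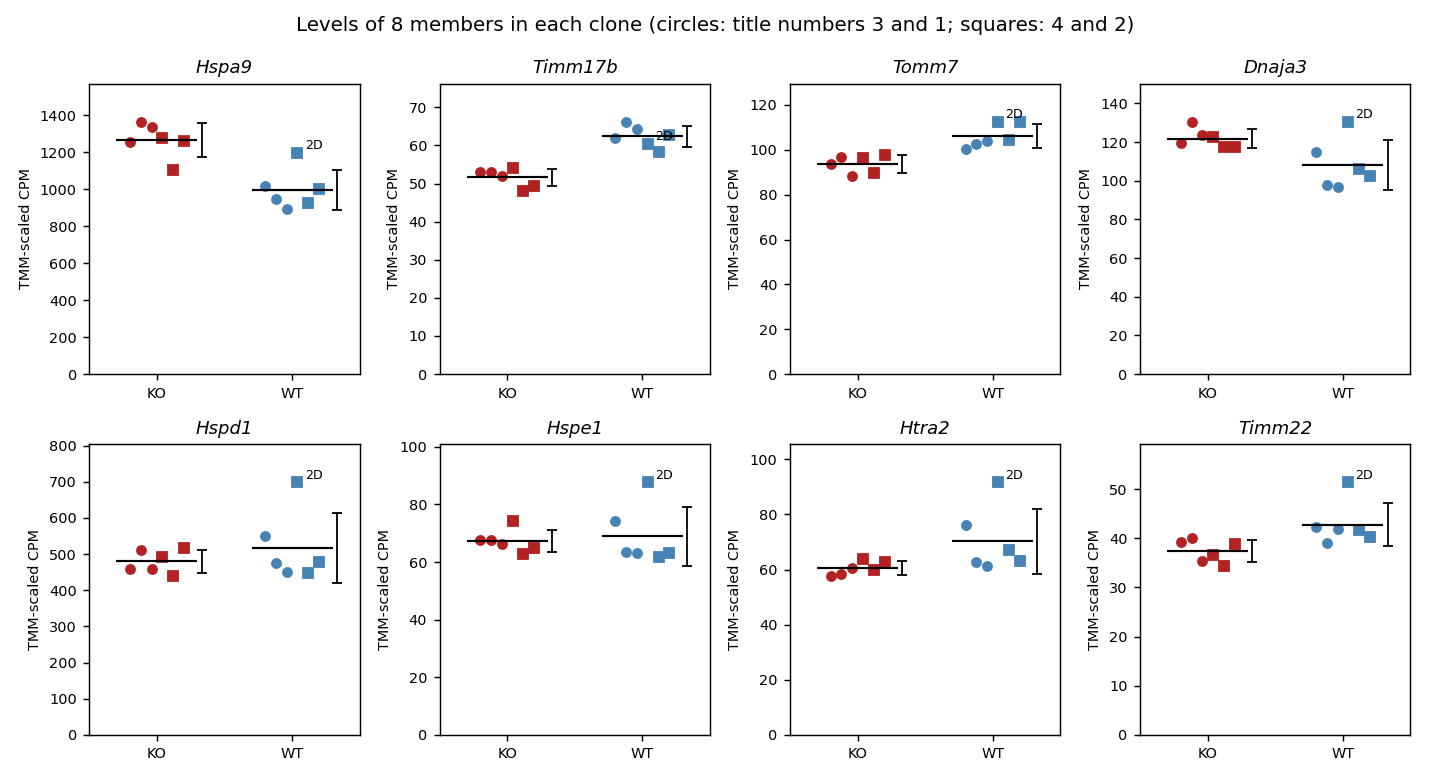
TMM-scaled CPM of 8 members in each clone (KO red, WT blue; circles are title numbers 3 and 1, squares 4 and 2), with the mean (line) and SD (bar) of 6 clones. Hspa9 is higher and Timm17b and Tomm7 are lower in KO, and clone 2D holds the highest WT value of Hspa9, Dnaja3, Hspd1, Hspe1, Htra2 and Timm22.

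The reads of Hspa9 were set against those of each of the 6 other motor and folding chaperones in the same library. For 5 of them (Hspd1, Hspe1, Grpel1, Dnajc19 and Trap1) every KO clone had more Hspa9 reads per partner read than every WT clone. There were 2.43 to 2.90 Hspa9 reads per Hspd1 read in KO clones and 1.71 to 2.10 in WT clones, with means of 2.64 ± 0.165 in KO and 1.95 ± 0.145 in WT (n = 6 each). Per Grpel1 read there were 12.5 to 15.03 Hspa9 reads in KO and 9.04 to 11.1 in WT. Per Dnaja3 read there were 9.42 to 10.8 Hspa9 reads in KO and 8.71 to 9.76 in WT, where the genotypes overlapped through KO clone 4K. In 5 of 6 KO clones Hspa9 itself already lay above every WT clone. WT clone 2D, the highest for Hspa9, was also the highest WT clone in 28 of 37 tested members. How often ratios of Hspa9 to other genes would separate the genotypes was not counted. These ratios were chosen after the values were seen and are given as a description, with no test.

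**Figure D3:**
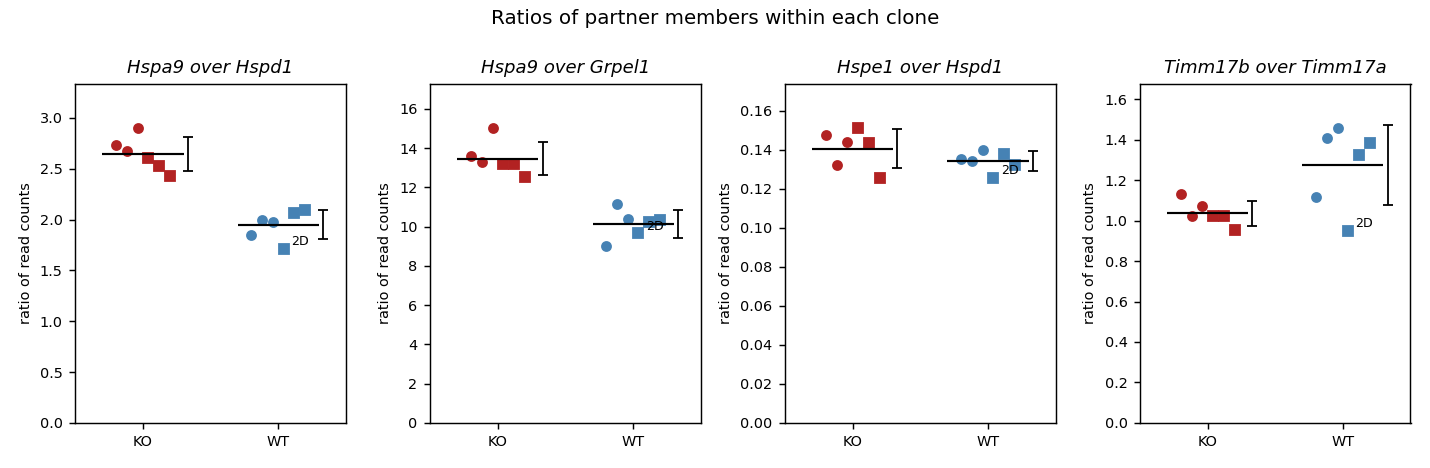
Ratios of read counts of partner members in each clone (KO red, WT blue; mean line and SD bar of 6 clones). Hspa9 over Hspd1 is 2.43 to 2.90 in KO and 1.71 to 2.10 in WT, whereas Hspe1 over Hspd1 overlaps between genotypes.

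Hspd1 and Hspe1 are transcribed away from each other. The stretch between their nearest RefSeq starts, 215 bases on the plus strand of chr1:55087933-55088147 (GRCm38.p6), is shown because the transcripts of both genes varied together among WT clones. Read towards Hspe1, with capitals for 1 TGCAAT (the core of a composite element for C/EBP and CHOP) and for matches to the heat shock element core TTCNNGAA, it is
Hspd1-Hspe1: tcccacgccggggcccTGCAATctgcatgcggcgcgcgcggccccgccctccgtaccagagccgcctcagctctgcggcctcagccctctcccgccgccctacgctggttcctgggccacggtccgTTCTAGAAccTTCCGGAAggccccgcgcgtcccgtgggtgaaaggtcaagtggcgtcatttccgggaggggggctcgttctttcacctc
The heat shock cores begin 127 and 137 bases from the Hspd1 start, and another RefSeq start of Hspd1 lies 95 bases beyond the Hspe1 start. In WT clones the coefficient of variation was 18.7% for Hspd1 and 14.9% for Hspe1, but 3.78% for their ratio, which was 0.134 ± 0.00507 Hspe1 reads per Hspd1 read. In KO clones it was 6.66% for Hspd1, 5.82% for Hspe1 and 6.98% for the ratio of 0.141 ± 0.00982, so the ratio varied no less than its parts. Among the 5 WT clones other than 2D, Hspd1 varied by 8.67%, Hspe1 by 7.97% and their ratio by 2.31%. Members that lie elsewhere rose in the same WT clones. Timm17a was at 63.6 CPM in 2D, 55.4 in 1A and 44.1 to 47.1 in the other WT clones. Tomm40 was at 195 CPM in 2D, 155 in 1A and 122 to 132 in the others. Whether Hspd1 and Hspe1 varied together more closely than other pairs was not tested.

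RefSeq promoter windows (250 bases before to 50 after a start) were found for 32 of the 38 members. They were not at hand for Tomm40l, Tomm7, Timm21, Hspa9, Afg3l2 and Htra2. On either strand, TTCNNGAA occurred in the windows of 8 members (25.0%) and in those of 9.60% of all 27025 genes. The members were Tomm22, Timmdc1, Timm9, Timm10, Timm13, Clpp, Hspd1 and Hspe1, and the windows of the last pair overlap. TGCAAT was in 3 members (9.38%, against 9.67% of all genes), Timm17b, Hspd1 and Hspe1. The composite ATF4 and C/EBP element TGATGNAA was in 0 members (against 4.51%), and the palindromic NRF1 site in 4 (12.5%, against 5.19%), Timm8b, Dnaja3, Hspd1 and Spg7. A match describes letters and does not show that a factor binds there.

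Of the 8 protease genes 0 were called, whether by edgeR or by DESeq2, and 3 reached an unadjusted p under 0.05 in edgeR's test (37.5%, against 23.7% of all genes). Over all genes edgeR called 7.94% and DESeq2 12.5%, so 0 calls among so few genes says little. Lonp1, the main protease of the matrix, was at 183 to 231 CPM in KO clones (median 215) and at 193 to 255 CPM in WT clones (median 199.5). The log2 fold change was 0.004 (SE 0.08, adjusted p = 0.985), with an approximate 95% interval from -0.15 to 0.15. Clpp, the proteolytic chamber of CLPXP, was at 57.9 to 70.4 CPM in KO (median 62.5) and at 61.4 to 72.3 CPM in WT (median 64.8), and its unfoldase Clpx averaged 55.6 CPM ± 1.30 in KO and 59.1 CPM ± 3.24 in WT. Yme1l1, the AAA protease facing the intermembrane space, was at 249.8 to 279 CPM in KO (median 262) and at 260.5 to 301 CPM in WT (median 284), with 3 KO clones below every WT clone (log2 fold change -0.09, SE 0.04, adjusted p = 0.210). Htra2, a serine protease of the intermembrane space, was at 57.7 to 63.96 CPM in KO (median 60.3) and at 61.4 to 91.7 CPM in WT (median 64.99). Its log2 fold change of -0.21 (SE 0.09, adjusted p = 0.179) was -0.12 without clone 2D. Afg3l2 and Spg7, which form the AAA protease facing the matrix, had log2 fold changes of 0.03 and -0.09, and the rhomboid protease gene Parl 0.09.

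Clone 2D shaped the WT side of many members. Of 37 tested members, 28 were highest in 2D among the WT clones and 24 were highest in it among all 12. Over all genes tested these shares were 28.6% and 21.2%. Among KO clones, 4K was lowest in 22 members (22.4% of all genes) and highest in 0. The members' median coefficient of variation was 6.08% in KO and 10.5% in WT clones, and 7.24% in WT without clone 2D. For all genes tested the medians were 8.81% in KO, 11.4% in WT and 9.61% in WT without 2D. Summed over the 38 members, expression was 4481 to 5108 CPM in KO and 4366 to 5633 CPM in WT, with 2D highest and 4K lowest within their genotypes. The part of maturing cells in the values of 2D was not tested.

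**Figure D4:**
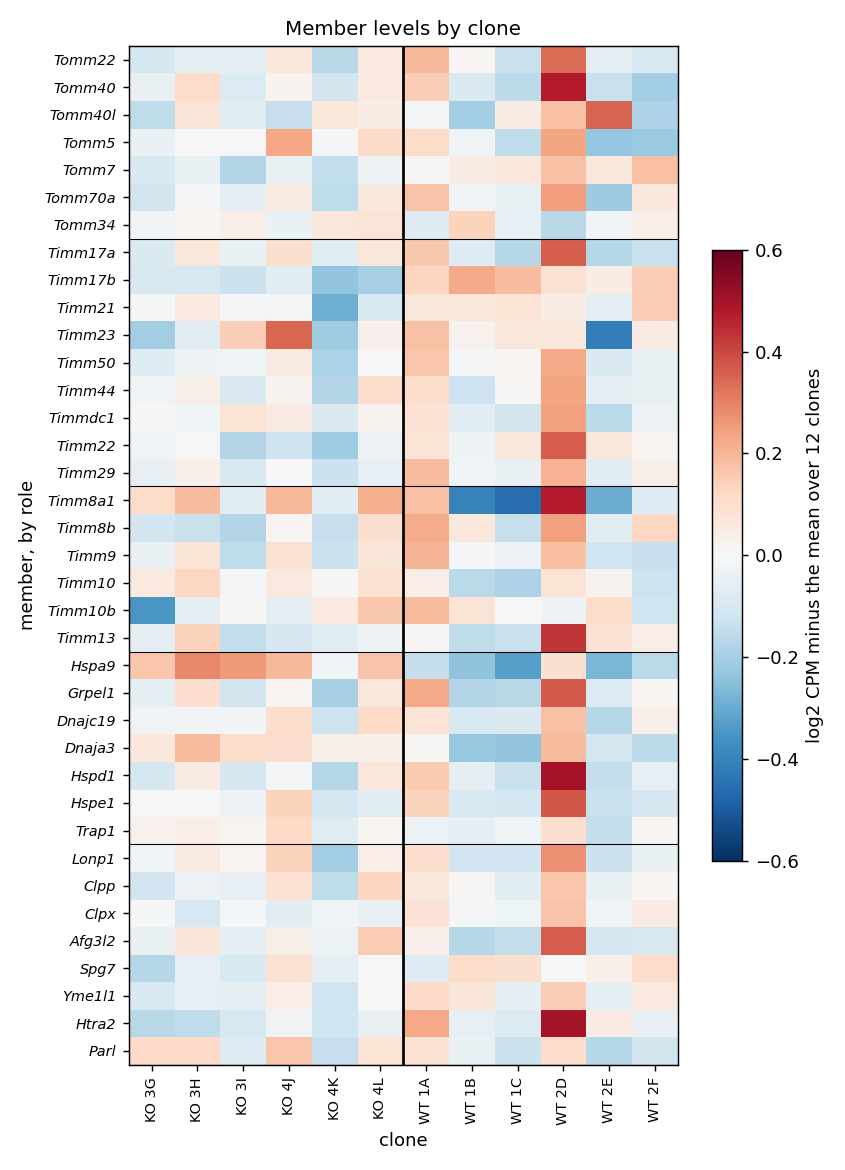
Log2 CPM of each tested member minus its mean over the 12 clones, KO clones to the left of WT clones, with members ordered by role. The column of clone 2D is high for most members (highest WT value in 28 of 37), 4K is the lowest KO clone in 22, and the row of Hspa9 is high across KO clones.

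Levels between genes were compared per kilobase of annotated exon. By counted reads, Hspa9 was the highest member in both genotypes (294 CPM per kb ± 20.98 in KO and 231 ± 25.3 in WT), followed by Hspd1 (182 ± 12.1 in KO and 195 ± 36.6 in WT) and Trap1 (122 ± 5.25 in KO and 118 ± 6.51 in WT). Tomm7 followed at 83.4 in KO and 94.3 in WT, while Timm17a stood at 6.32 in KO and 6.33 in WT. Reads that aligned to several places were not counted. Short stretches also found in other genes made up 42.1% of the Hspd1 transcript sequence, against 2.81% for Hspa9. More reads can therefore go uncounted for Hspd1, and whether Hspa9 transcripts outnumber those of Hspd1 was not tested.

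At the low end the counting itself limits the values. Timm23, the channel of the TIM23 complex, was at 2.25 to 3.31 CPM in KO clones (median 2.58) and at 1.956 to 2.95 CPM in WT clones (median 2.71), with a log2 fold change of 0.01 (SE 0.14, adjusted p = 0.967 by edgeR). Of its transcript 50-mers 57.5% also occur in transcripts of other genes, and reads that aligned to several places were not assigned to genes. For Tomm6, with 0.253 CPM ± 0.0978 in KO and 0.362 CPM ± 0.0732 in WT, 72.8% were shared, and Gm21981 overlaps it on the same strand. The levels hold only reads assigned to 1 gene, and 5 further members (Tomm40l, Hspd1, Timm8a1, Htra2 and Hspe1) shared 20% or more. Reads aligned to several places made up 44.04% ± 0.542 of records in KO and 43.2% ± 0.381 in WT (n = 6 each). Ambiguous reads, which fall in exons of more than 1 gene, made up 1.57% ± 0.0334 in KO and 1.62% ± 0.0281 in WT. The part of either kind in the levels of these members was not tested. Since reads were counted without strand, reads from exon bases shared with a neighbour cannot be told apart by gene and count as ambiguous. In GENCODE M21 such overlap covers 43.7% of the exon bases of Htra2 (Aup1 and Loxl3) and 64.3% of those of Tomm40l (Nr1i3). For Tomm6 it covers 84.2%. Part of the sharing of these 3 members is therefore overlap at the same place.

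**Figure D5:**
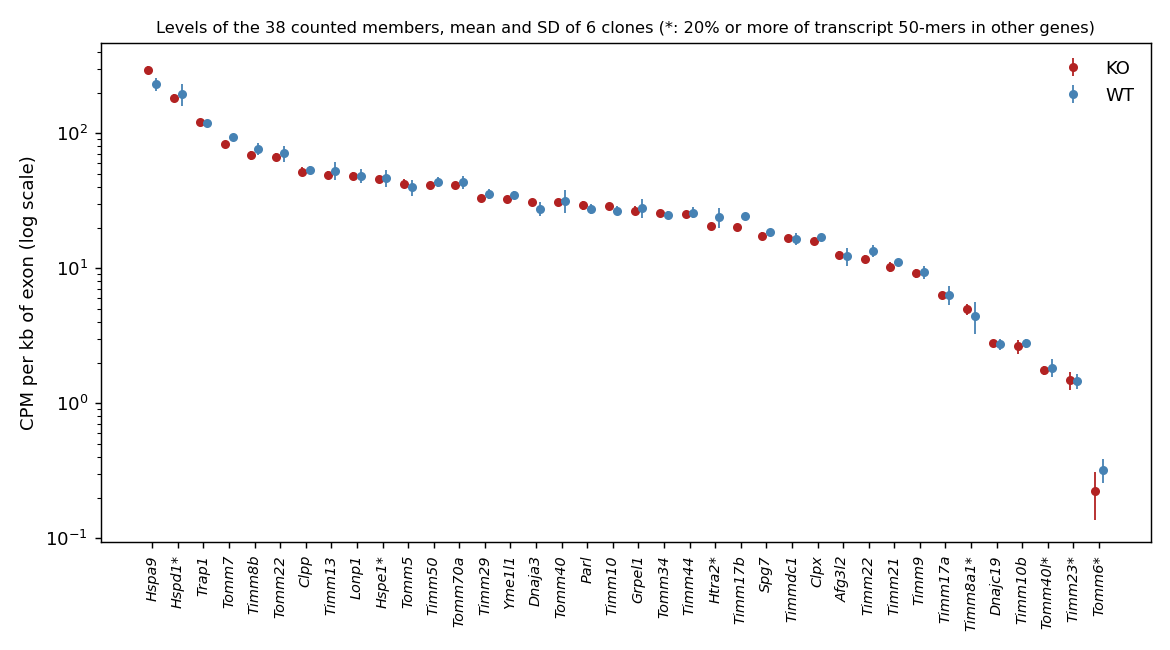
Mean level of the 38 counted members in CPM per kb of exon on a log axis (KO red, WT blue; bars are the SD of 6 clones). Hspa9, Hspd1 and Trap1 are highest, and asterisks mark the 7 members with 20% or more of their transcript 50-mers in other genes, whose reads can go uncounted.

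Of 25 tested genes of the same pathway outside the 39, which serve sorting, processing and accessory steps of import, edgeR called 0, against 7.94% of all genes. Their median log2 fold change was -0.01, 7 reached an unadjusted p under 0.05 (28%, against 23.7% of all genes), and DESeq2 called 2 (12.5% of all genes it tested). Those were Grpel2, a second nucleotide exchange factor for mortalin (39.7 CPM ± 1.53 in KO, 36.5 CPM ± 1.34 in WT, no overlap between genotypes, adjusted p = 0.0379 by DESeq2 and 0.0848 by edgeR), and Pmpca, the alpha subunit of the presequence-cleaving peptidase (150.2 CPM ± 6.51 in KO, 165 CPM ± 10.9 in WT, adjusted p = 0.0453 by DESeq2 and 0.0876 by edgeR). Samm50, the core of the outer membrane sorting machinery, averaged 274 CPM ± 10.9 in KO and 273 CPM ± 18.02 in WT. Gfer, the sulfhydryl oxidase of the intermembrane space, averaged 24.99 CPM ± 1.45 in KO and 21.1 CPM ± 3.31 in WT and passed edgeR's test without clone 2D (adjusted p = 0.0343), but not with 2D and 3G both left out (0.0645). Clone 2D held the highest WT value of Gfer (26.2 CPM), so the pass without it is no separate support. These 4 genes were chosen after their values were seen, and so were Atf5 and Hsf1 among the factors that follow.

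Of 6 tested transcription and signalling factors tied to mitochondrial stress, edgeR called 2, both higher, against 7.94% of all genes. Their median log2 fold change was 0.34, and the 4 not called were Atf5, Cebpb, Hsf1 and Dele1. The list was chosen with earlier results of these data known, so the number called is given as a description. Ddit3 (CHOP) was at 19.9 to 29.1 CPM in KO clones (median 24.8) and at 8.12 to 13.1 CPM in WT clones (median 9.07), with no overlap (log2 fold change 1.35, SE 0.13, adjusted p = 0.000336). Atf4 was at 516 to 652 CPM in KO (median 631) and at 312 to 596 CPM in WT (median 374), the highest WT value being that of 2D (0.57, SE 0.15, adjusted p = 0.0344). Atf4 missed the threshold without clone 3G (0.59, adjusted p = 0.0594) but passed it without 2D and 3G together (0.00687). Atf5, known as a regulator of mitochondrial chaperone genes in mammals, was at 66.2 to 138 CPM in KO (median 108) and at 10.8 to 96.9 CPM in WT (median 17.4). It did not pass edgeR's test with all clones (log2 fold change 1.78, SE 0.51, adjusted p = 0.0536), and passed without clone 2D (2.56, adjusted p = 0.000801), the highest WT clone. Without clone 3G Atf5 did not pass (1.80, adjusted p = 0.0909), and without 2D and 3G together it did (2.58, adjusted p = 0.00245). Clone 2D held the highest WT value of Atf4 and of Atf5, so leaving it out had to widen these differences. The passes of both genes without 2D are therefore no separate support. Hsf1, the heat shock factor, had a log2 fold change of -0.07.

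Of 10 tested cytosolic chaperone genes edgeR called 3, against 7.94% of all genes. Hspa8, the constitutive HSP70, was higher (614 CPM ± 16.2 in KO, 549.7 CPM ± 30.05 in WT, adjusted p = 0.0251), with no overlap. Its J-protein partner Dnaja2 was higher too (411 CPM ± 12.1 in KO, 373 CPM ± 22.1 in WT, adjusted p = 0.0488). Stip1, the HSP70-HSP90 organizing co-chaperone, was lower (392 CPM ± 8.86 in KO, 443 CPM ± 34.7 in WT, adjusted p = 0.0392), also with no overlap. The median log2 fold change of these 10 genes was -0.07. This list, too, was chosen with earlier results of these data known. Without clone 3G edgeR called 1 of the 10, Hspa8 (adjusted p = 0.0389), against 5.06% of all genes. The log2 fold change of Dnaja2 was then 0.15 (adjusted p = 0.0612), against 0.14 with all clones, and that of Stip1 was -0.16 (0.0898), against -0.18.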

How the data were processed

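Each clone has 1 deposited file of unnormalised read counts by Ensembl identifier. The submitters' processing notes name STAR, HTSeq and edgeR and the build mm9, with no versions. The file names state counting without strand. The 5 HTSeq summary lines per file were left out of totals and tests. The largest, reads aligned to several places, held 44.04% of records in KO and 43.2% in WT clones on average. Symbols and exon lengths came from GENCODE M21 (32860 identifiers matched), which belongs to a later build than mm9. The only coordinates given, those between the Hspd1 and Hspe1 starts, are from RefSeq (GRCm38.p6), as are the promoter sequences.

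Counts of all 12 clones were tested with edgeR 4.0.16 in R 4.3.3 (quasi-likelihood F-test, TMM, filterByExpr by genotype, Benjamini-Hochberg adjustment over 11819 genes). The SE is the absolute log2 fold change over the square root of F. The code was tested on simulated counts. Clones of a genotype differed by more than counting error (chi-square per gene at least 14.9), so they were not repeats of 1 library and each counted as 1 replicate. This does not show that clones sharing a title number are independent. DESeq2 was version 1.42.0. Members and lists were chosen with earlier results of these data known. Described clone by clone were called members, members without overlap between genotypes, the 3 largest log2 fold changes each way and 1 to 3 per role; other lists by counts and called genes. Alternatives were DESeq2 size factors, DESeq2's test, no count filter, clones summed by title number, and each clone left out.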

Additional observations from a re-analysis of the deposited data

Results flagged for a closer look

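Of 74 sets of 6 clones (37 members in each genotype), 4 held a clone whose gap to its nearest neighbour exceeded the critical share of the range (Dixon's gap test), and chance gives about 1 in 20. WT clone 2D was apart for Timm22 (51.4 CPM, next 42.3 CPM), Timm13 (93.8 CPM, next 73.9 CPM) and Afg3l2 (158 CPM, next 125 CPM), and WT clone 2E was low for Timm23 (1.956 CPM, next 2.66 CPM).

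Of 16 such sets of summed cell type markers, 6 were past the same limit. WT clone 2D was highest for mature neutrophil genes (1480 CPM, next 113 CPM) and for lymphoid genes (62.4 CPM, next 24.8 CPM). WT clone 1A was highest for erythroid genes (45.4 CPM, next 14.1 CPM) and for fetal hepatocyte genes (0.842 CPM, next 0.291 CPM). KO clone 3G was highest for fetal hepatocyte genes (141 CPM, next 1.95 CPM) and stromal genes (8.20 CPM, next 0.0469 CPM).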

How the results depend on the processing

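Hspa9, Timm17b and Tomm7 kept their direction under every alternative run and stayed called with DESeq2, with DESeq2 size factors, with no filter on low counts and in all 12 fits without 1 clone. They were not called when clones were summed by title number, where edgeR called 0 members (8 had an unadjusted p under 0.05) and 1.99% of 13800 genes. The log2 fold changes were then 0.35 for Hspa9 (adjusted p = 0.0756), -0.27 for Timm17b (0.0840) and -0.17 for Tomm7 (0.125). Tomm7 was also not called without 2D and 3G together, a setting chosen after seeing the data (adjusted p = 0.055). The count of all genes called was 1631 with DESeq2, 551 with no filter, 274 (of 13800) with summed clones and 570 to 1031 without 1 clone (602 without 3G, 608 without 1B, 570 without 3I). Of the further import genes DESeq2 called 2, and 0 to 1 were called without 1 clone. Signs of uncalled members turned. Without 1 clone the log2 fold change ran from -0.072 to 0.079 for Tomm40, from -0.063 to 0.059 for Timm23, from -0.15 to 0.0015 for Hspd1, from -0.068 to 0.048 for Hspe1 and from -0.026 to 0.067 for Lonp1. It was -0.0040 for Lonp1 with no filter, and without 2D and 3G together 0.085 for Tomm40, 0.012 for Hspd1, 0.045 for Hspe1 and 0.0042 for Clpp. The cause was not tested. No paired analysis was possible because the genotypes share no clone numbers. A count of 3, the limit that a count of 0 allows, equals 0.109 to 0.158 CPM and covers counting error only.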
